A study of Mus musculus with 9 samples.

Results

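The transcription factors that give dorsal root ganglion (DRG) sensory neurons their identity were followed here after sciatic nerve injury: the LIM homeodomain factors Isl1 and Isl2, the POU factors Pou4f1, Pou4f2 and Pou4f3, the Runt factors Runx1 and Runx3, the paired-like homeodomain factor Prrxl1 (older name Drg11), the ETS factor Etv1 (Er81) and the homeobox factor Tlx3. Their probes were found by the gene name, an older name or the RefSeq identifier in the array files. There were 15 such probes for the 10 genes, of 41174 probes and 27670 gene names on the array. Isl1 and Pou4f1 are present in nearly all developing somatosensory neurons, where they end the neurogenic programme and start sensory differentiation. Runx1 directs unmyelinated nociceptors and itch neurons, and Runx3 and Etv1 act in the proprioceptors that innervate muscle. Prrxl1 and Tlx3 are needed by nociceptive circuits, Pou4f2 is best known in retinal ganglion cells, and Pou4f3 in the hair cells of the inner ear.

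The study profiled lumbar DRG of mice, L3/L4 by its methods and L4 by its results text. There were 9 two-colour Agilent arrays, 4 from uninjured and 5 from injured ganglia, where figure legends of the study give 5 or 4 per condition. The labels give cre.neg and jun.wt for every sample and no strain, age or sex. Injury was sciatic nerve transection, with collection 3 days later by the labels and methods (the text of the study gives 24 hr, and a figure legend crush). Labelled cRNA of DRG carried Cy5 and that of a common mouse reference RNA carried Cy3 throughout, so that each value is a log2 ratio of DRG over reference. The labels identify no animals and do not say whether uninjured ganglia came from injured mice, so p-values measure the spread between these samples, which may in part be technical. The arrays lay on 3 slides: slide 1 held uninjured arrays 2, 3 and 4, slide 2 held uninjured array 1 with injured arrays 1, 2 and 5, and slide 3 held injured arrays 3 and 4. Slide and injury therefore overlapped in large part.

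The ganglia carried their neuronal signature. All 14 neuronal markers tested had a ratio above 0 in uninjured DRG, from 2.15 for the sodium channel gene Scn9a to 10.02 for the neurofilament gene Nefl. The median Cy5 signal lay between 200 and 231 on uninjured and between 156 and 238 on injured arrays, and 71.0% to 78.9% of spots were above background in Cy5. Injured arrays 2 and 4 stood apart by skeletal muscle genes, whose mean was 1.87 and 3.25 above the uninjured mean on the log2 scale against a range of −0.11 to 0.29 on the other injured arrays. Red blood cell genes were 1.19 and 1.22 above it on injured arrays 2 and 5. The part that these admixtures had in the changes of the identity factors was not tested beyond leaving the arrays out.

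The identity factors were lower after injury or did not pass the test, and none was higher. Of the 15 probes, 14 could be tested, which required Cy5 signal well above background on at least 4 arrays. Of these, 13 were above background on all 9 arrays, and the first Pou4f2 probe on the 4 uninjured arrays and 1 injured array. Limma called 9 of the 14 at an adjusted p under 0.05, all 9 lower, where 13% of all 31186 probes tested were called lower and 10.5% higher. The 9 probes stand for 8 genes: Isl1, Isl2, Pou4f1, Pou4f3, Runx1, Runx3, Prrxl1 and Etv1. No probe was higher at an unadjusted p under 0.05 or at an exact permutation p under 0.05, and 11 were lower by either. The share of all probes at these thresholds was not counted, so these numbers have no baseline here. The 11 include the first Pou4f2 probe, which passed the filter through its uninjured arrays. The filter thus favoured a fall at that probe. In the same 9 probes every injured array lay below every uninjured array, and groups did not overlap for 22.6% of all probes tested. The median log2 fold change of the 14 probes was −0.43, beside −0.0045 over all probes. Counted by the brightest probe of each gene, 6 of the 10 genes were lower, where 13.7% of 20898 genes were. Brightness was taken in Cy5 over all 9 arrays, injured ones included, which decided the probe used for Runx3. In whole ganglia, fewer cells of a type and less RNA per cell cannot be told apart.

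**Figure D1:**
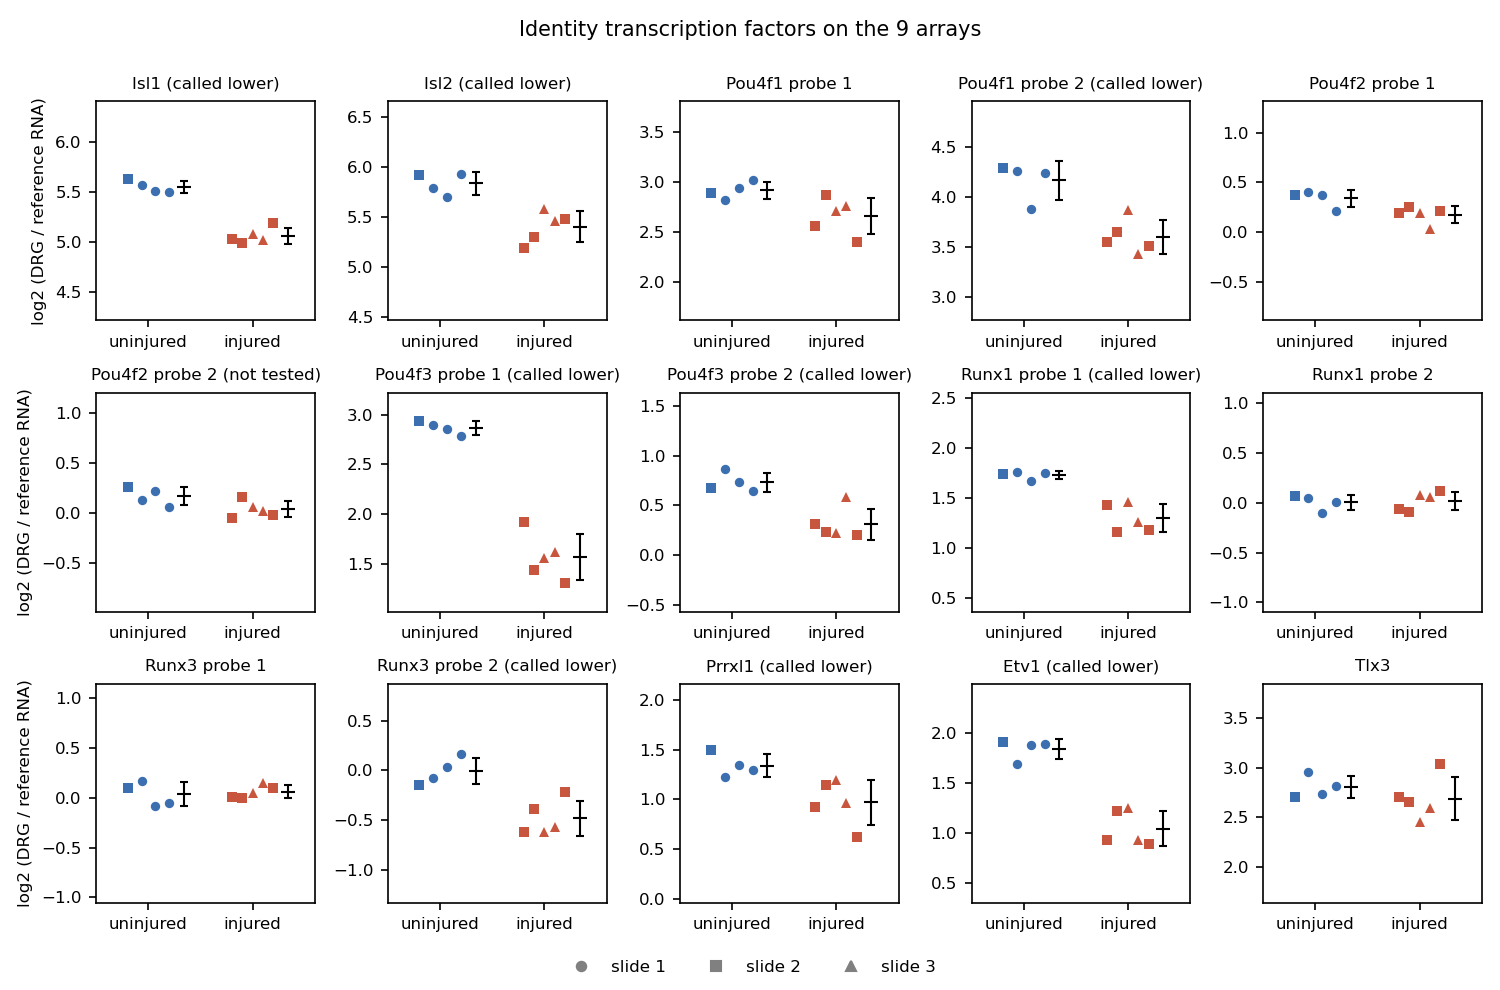
Log2 ratio of DRG over reference RNA (y axis) for each of the 15 probes, on 4 uninjured (blue) and 5 injured (red) arrays, with the slide given by the symbol and the mean ± SD beside the points; every panel spans the same number of log2 units around its own values. The points do not overlap in the 9 panels marked as called lower, and the widest gap is that of Pou4f3 probe 1, whose injured arrays lay at 1.92 or below and uninjured arrays at 2.78 or above.

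Both Islet factors fell. Isl1, the LIM homeodomain factor shared by nearly all sensory neurons, is listed as NM_021459, with its probe at chr13:113508612-113508671 of mouse build mm7, minus strand. No annotation of that build was used here, so exons and UTRs are not assigned for any probe. The Isl1 ratio was 5.64, 5.57, 5.51 and 5.50 on uninjured arrays 1 to 4 and 5.03, 4.99, 5.08, 5.02 and 5.19 on injured arrays 1 to 5. The lowest uninjured array thus stood above the highest injured array. The mean fell from 5.55 ± 0.0628 (SD, n = 4) to 5.06 ± 0.0790 (SD, n = 5), a change of −0.49 on the log2 scale (SE 0.0618, limma adjusted p = 0.000262, exact permutation p = 0.00794, the smallest that a two-sided test of 4 against 5 arrays allows), which leaves 71.0% of the uninjured ratio.

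Isl1 was printed 10 times on each array, which gives the technical error of a single probe. The SD among the 10 spots lay between 0.0640 and 0.290, and uninjured array 4 had the widest spread, from 4.74 to 5.77. Taken one spot at a time, the change ranged from −0.28 to −0.59, and 9 of the 10 spots reached an exact permutation p of 0.00794. The remaining spot gave −0.28 with an exact permutation p of 0.167. These spots share their RNA and are not replicates of the injury.

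**Figure D2:**
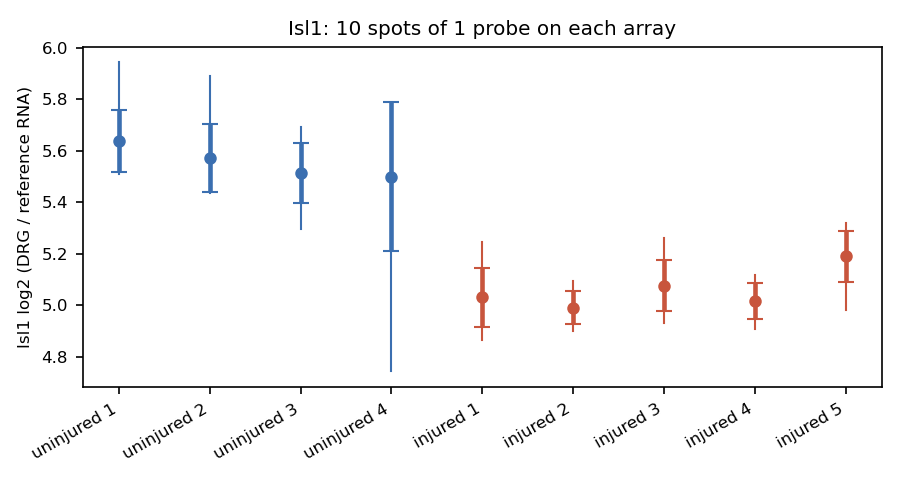
Isl1 log2 ratio (y axis) on each of the 9 arrays (x axis), as the mean (point), SD (thick bar with caps) and range (thin line) of 10 spots of the same probe. All 5 injured means lie between 4.99 and 5.19 and all 4 uninjured means between 5.50 and 5.64, while the range of uninjured array 4 reaches down to 4.74.

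Isl2 (NM_027397, probe at chr9:55575664-55575723 of mm7, plus strand), the paralog of Isl1, was 5.92, 5.80, 5.70 and 5.94 on uninjured arrays 1 to 4 and 5.19, 5.29, 5.58, 5.46 and 5.48 on injured arrays 1 to 5. The groups did not overlap, with 5.58 and 5.70 the nearest values. The mean fell from 5.84 ± 0.112 (SD, n = 4) to 5.40 ± 0.157 (SD, n = 5), a change of −0.44 on the log2 scale (SE 0.0894, limma adjusted p = 0.00534, exact permutation p = 0.00794). The change of Isl1 minus that of Isl2 was −0.06, which was not distinguishable from 0 (exact permutation p = 0.516 over arrays and also after adjustment over 5 pairs of related factors). In the Cy5 channel alone, quantile normalized between arrays, Isl2 was at −1.18 and Isl1 at −0.64. The pair differed there by 0.54 (exact permutation p = 0.0159, adjusted p = 0.0198). The reference channel, normalized likewise, differed by −0.66 between groups at the Isl2 spot and by −0.18 at the Isl1 probe. The same reference RNA was on all arrays by design.

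The promoters of the Islet pair are shown because both carry a cyclic AMP response element (CRE), in part or whole, the element bound by the ATF and CREB families. The sequences are those of RefSeq on GRCm38.p6, from 250 bases before to 50 bases after the transcription start, 5′ to 3′. The window of Isl1 is chr13:116309639-116309938 on the minus strand and that of Isl2 chr9:55540899-55541198 on the plus strand. Capitals mark the partial site TGACGT in Isl1, which starts at −59 from the transcription start, and the whole palindrome TGACGTCA in Isl2, which starts at −11 and contains that partial site on both strands.
Isl1: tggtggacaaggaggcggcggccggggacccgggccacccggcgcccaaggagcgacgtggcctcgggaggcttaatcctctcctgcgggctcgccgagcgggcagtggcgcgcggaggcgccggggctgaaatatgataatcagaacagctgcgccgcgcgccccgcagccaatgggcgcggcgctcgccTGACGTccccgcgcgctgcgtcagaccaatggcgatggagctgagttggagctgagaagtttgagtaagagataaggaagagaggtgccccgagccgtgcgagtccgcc
Isl2: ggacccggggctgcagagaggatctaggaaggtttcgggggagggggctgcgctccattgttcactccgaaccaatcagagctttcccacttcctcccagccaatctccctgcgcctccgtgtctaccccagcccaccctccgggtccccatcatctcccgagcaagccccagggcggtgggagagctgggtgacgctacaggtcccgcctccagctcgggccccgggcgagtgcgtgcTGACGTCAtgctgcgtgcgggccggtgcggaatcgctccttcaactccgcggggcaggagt
Over 32851 RefSeq mouse promoters of this length, 1.79% held TGACGTCA and 7.51% held TGACGT on either strand. Of 12 promoters of 9 of the factors searched, only these had either element. The AP-1 motif TGANTCA, in 7.81% of all promoters, and the homeodomain core TAATTA, in 5.29%, were in 0 of the 12. A match describes letters in this window and no binding was measured.

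Among the POU factors the change ran from small to the largest of the group. Pou4f1 (Brn3a, NM_011143), the pan-sensory member, has 2 probes on chromosome 14. The brighter, probe 1 (chr14:98895465-98895524, minus strand), was 2.89, 2.82, 2.95 and 3.02 on uninjured arrays 1 to 4 and 2.56, 2.87, 2.71, 2.76 and 2.40 on injured arrays 1 to 5. Injured array 2 lay within the uninjured range and the others below it. Its change was −0.26 on the log2 scale (SE 0.0936) and did not pass in limma (adjusted p = 0.0706, exact permutation p = 0.0317). Probe 2 (chr14:98892394-98892453, minus strand) was 4.29, 4.26, 3.88 and 4.24 on uninjured arrays 1 to 4 and 3.54, 3.65, 3.87, 3.43 and 3.50 on injured arrays 1 to 5. The groups touched without overlap, with uninjured array 3 next to injured array 3. It fell by 0.57 on the log2 scale (SE 0.109, limma adjusted p = 0.00361, exact permutation p = 0.0159). The difference in change between the probes, 0.31, did not pass (exact permutation p = 0.0873, also after adjustment). The reference channel was not well above background for probe 2 on any array, so its ratio gives only a bound on the level over reference, and its change was −0.49 in Cy5 alone.

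Pou4f2 (Brn3b, NM_138944) was near the limit of detection. Probe 1 (chr8:76975165-76975224 of mm7, minus strand) lay between 0.22 and 0.40 on uninjured and between 0.03 and 0.25 on injured arrays, which overlapped. Its change of −0.16 on the log2 scale (SE 0.0664) did not pass in limma (adjusted p = 0.102, exact permutation p = 0.0317). Probe 1 was tested because its uninjured arrays were above background, so the filter favoured a fall. Probe 2 (chr8:76973230-76973254, minus strand) was not well above background in Cy5 on any array and was not tested. Its measured mean was 0.17 ± 0.0918 (SD, n = 4) on uninjured and 0.04 ± 0.0818 (SD, n = 5) on injured arrays. The reference was not well above background at either Pou4f2 probe on any array.

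Pou4f3 (Brn3c), on chromosome 18, had the largest change of the factors. Probe 1, named in the files by the cDNA clone AK039639 (chr18:42774480-42774539 of mm7, plus strand), was 2.94, 2.89, 2.85 and 2.78 on uninjured arrays 1 to 4 and 1.92, 1.44, 1.56, 1.63 and 1.30 on injured arrays 1 to 5. Every injured array was lower than every uninjured one by at least the gap between 1.92 and 2.78. The mean fell from 2.87 ± 0.0672 (SD, n = 4) to 1.57 ± 0.231 (SD, n = 5), a change of −1.30 on the log2 scale (SE 0.109, limma adjusted p = 1.75e-05, exact permutation p = 0.00794), to 40.7% of the uninjured ratio. By absolute change this probe lay at percentile 99.3 of all probes tested. The reference was well above background at this probe on 1 array only, and the change was −1.38 in Cy5 alone.

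The second Pou4f3 probe, NM_138945 (chr18:42772556-42772615, plus strand), changed less. It was 0.68, 0.87, 0.74 and 0.65 on uninjured arrays 1 to 4 and 0.31, 0.23, 0.22, 0.58 and 0.20 on injured arrays 1 to 5. Injured array 4 came closest to the uninjured arrays. Its change was −0.42 on the log2 scale (SE 0.0874, limma adjusted p = 0.00556, exact permutation p = 0.0159). Probe 1 changed by 0.87 more than probe 2 in the negative direction (difference −0.87, exact permutation p = 0.00794, 0.0212 after adjustment over 4 genes with 2 tested probes). The gap depended on the processing. With a background offset of 0 the changes were −1.24 at probe 1 and −0.82 at probe 2. With Agilent's own ratio they were −0.36 at probe 1 and −0.86 at probe 2, the reverse order. Probe 1 starts 1924 bases after probe 2 in mm7, and the RefSeq gene has a length of 1497 bases in GRCm38.p6, so probe 1 lies beyond a gene of that length. Whether its signal came from the Pou4f3 transcript was not tested, and the large change is that of this probe.

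Differences among the POU factors depended on the probe of Pou4f3, and those with Pou4f2 rest on a probe near background. With the brightest probe of each gene, the change of Pou4f1 exceeded that of Pou4f3 by 1.04 and the change of Pou4f2 exceeded it by 1.13 (each exact permutation p = 0.00794, adjusted p = 0.0132 over 5 pairs). With Pou4f3 probe 2 these differences were 0.16 (adjusted p = 0.41) and 0.26 (adjusted p = 0.179) by the same exact test. Pou4f1 and Pou4f2 differed by −0.09 (exact permutation p = 0.5, adjusted p = 0.516), and by −0.40 with Pou4f1 probe 2 (adjusted p = 0.0298). Pou4f2 probe 1 passed the filter through its 4 uninjured arrays, with 1 injured array above background. A signal that near background can fall only little, so a smaller fall of Pou4f2 cannot be told from this limit. With a background offset of 0, Pou4f2 minus Pou4f3 was 0.84 (adjusted p = 0.159 by the exact test).

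The genes whose ratio followed Pou4f3 probe 1 most closely over the 9 arrays, among 16465 genes, were Zmat4 (Pearson r = 0.9964), Snx25 (r = 0.9931) and Trappc2 (r = 0.9930). Zmat4 encodes a zinc finger protein, Snx25 a sorting nexin and Trappc2 a subunit of a vesicle tethering complex. Their log2 fold changes were −1.06, −0.46 and −0.47. The points share the arrays and the injury contrast, so the likeness is a description.

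Each Runt factor had one probe that was called and one that was not. Runx1 probe 1 (NM_009821, chr16:92658334-92658393 of mm7, minus strand) was 1.74, 1.76, 1.67 and 1.75 on uninjured arrays 1 to 4 and 1.43, 1.16, 1.46, 1.26 and 1.18 on injured arrays 1 to 5. The groups were well apart. The mean fell from 1.73 ± 0.0406 (SD, n = 4) to 1.30 ± 0.140 (SD, n = 5), a change of −0.43 on the log2 scale (SE 0.0761, limma adjusted p = 0.00225, exact permutation p = 0.00794). Runx1 probe 2 (D13802, with file coordinates from 92667924 to 92698376 on chromosome 16) lay between −0.10 and 0.07 on uninjured and between −0.10 and 0.12 on injured arrays, a change of 0.02 (95% interval −0.13 to 0.16, limma adjusted p = 0.903). The probes differed by −0.45 in their change (exact permutation p = 0.0159, adjusted p = 0.0212).

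Runx3 (NM_019732), the factor of TrkC-bearing proprioceptors, showed the same split over a distance of 646 bases. Probe 1 (chr4:134554481-134554540 of mm7, plus strand) lay between −0.08 and 0.17 on uninjured and between −0.01 and 0.15 on injured arrays, a change of 0.02 (95% interval −0.13 to 0.18, limma adjusted p = 0.852). Probe 2 (chr4:134555127-134555186, plus strand) was −0.14, −0.08, 0.03 and 0.16 on uninjured arrays 1 to 4 and −0.62, −0.39, −0.62, −0.57 and −0.22 on injured arrays 1 to 5. Injured array 5 and uninjured array 1 were the nearest. Probe 2 fell by 0.48 on the log2 scale (SE 0.0982, limma adjusted p = 0.00556, exact permutation p = 0.0159), and the probes differed by 0.50 in their change (exact permutation p = 0.0159, adjusted p = 0.0212). Both dyes gave signal well over background at the 4 Runt probes on each of the 9 arrays.

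**Figure D3:**
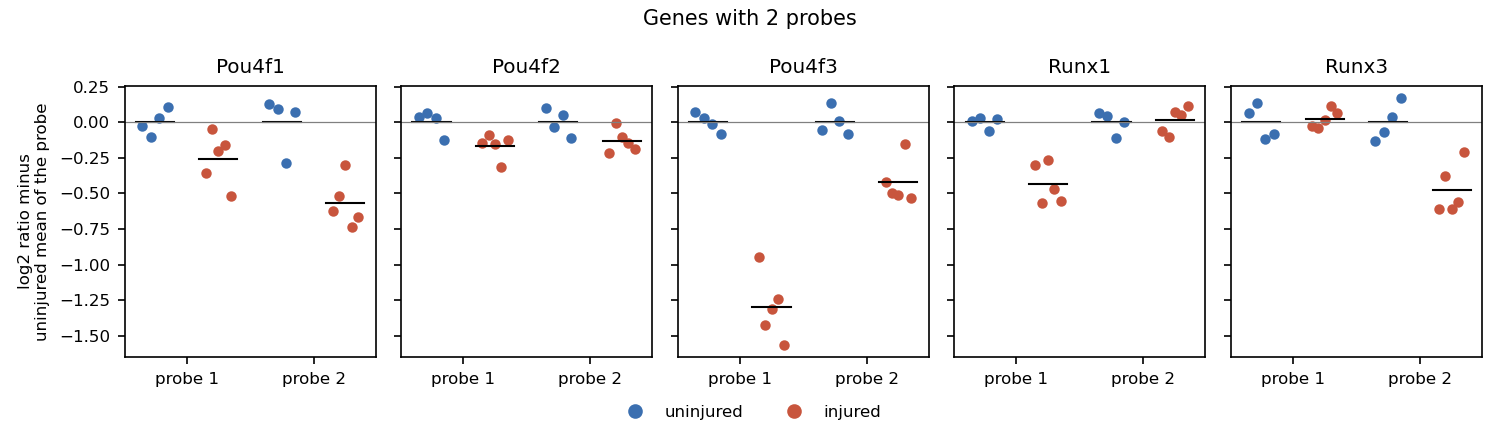
Log2 ratio relative to the uninjured mean of each probe (y axis) for the 5 genes with 2 probes, on uninjured (blue) and injured (red) arrays, with lines at the group means. The injured mean is −1.30 for Pou4f3 probe 1 and −0.42 for probe 2, and for Runx1 and Runx3 one probe stays near 0.02 while the other is at −0.43 and −0.48.

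With the brightest probes, Runx1 fell by 0.45 more than Runx3 on the log2 scale (difference −0.45, exact permutation p = 0.00794, adjusted p = 0.0132). Brightness was the mean Cy5 over all 9 arrays, so the choice of Runx3 probe depended on the injured arrays. On uninjured arrays alone probe 2 was the brighter, with a mean log2 Cy5, not normalized between arrays, of 8.21 against 7.95 for probe 1. With Runx3 probe 2 the difference was 0.04 (adjusted p = 0.825) and with Runx1 probe 2 it was −0.01 (adjusted p = 0.849), by the same exact test. No difference between the Runt factors held over their probes.

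The distal promoters of Runx1 and Runx3 are printed because each holds a tandem of the Runt-domain site AACCACA, which Runx proteins themselves bind. The windows, from RefSeq on GRCm38.p6, are chr16:92826025-92826324 on the minus strand for Runx1 and chr4:135120395-135120694 on the plus strand for Runx3, 5′ to 3′. Capitals mark the site, which starts at 27 and 35 from the transcription start of Runx1 and at −135 and −127 from that of Runx3.
Runx1: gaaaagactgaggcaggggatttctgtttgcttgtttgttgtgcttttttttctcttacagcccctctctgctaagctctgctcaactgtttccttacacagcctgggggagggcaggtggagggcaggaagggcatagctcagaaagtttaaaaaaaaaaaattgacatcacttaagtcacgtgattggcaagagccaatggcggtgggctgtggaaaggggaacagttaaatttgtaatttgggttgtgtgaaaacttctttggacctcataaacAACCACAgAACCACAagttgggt
Runx3: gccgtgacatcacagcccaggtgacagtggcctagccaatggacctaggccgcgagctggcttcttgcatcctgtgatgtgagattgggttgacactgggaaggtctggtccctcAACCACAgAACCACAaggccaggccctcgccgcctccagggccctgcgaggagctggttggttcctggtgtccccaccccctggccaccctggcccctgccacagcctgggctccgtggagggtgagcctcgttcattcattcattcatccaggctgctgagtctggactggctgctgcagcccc
The site (AACCACA or TGTGGTT) was in 5.27% of all promoters, and among the 12 promoters searched also in that of Prrxl1, as TGTGGTT at −241. The proximal promoters of Runx1 and Runx3 had no match. The arrays do not say which promoter was in use.

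Etv1 fell on its single probe, and Prrxl1 close to the threshold. Etv1 (NM_007960, chr12:36701095-36701155 of mm7, plus strand), the ETS factor of proprioceptors, was 1.91, 1.70, 1.88 and 1.89 on uninjured arrays 1 to 4 and 0.93, 1.22, 1.24, 0.92 and 0.89 on injured arrays 1 to 5. The gap between 1.24 and 1.70 separated the groups. The mean fell from 1.84 ± 0.0989 (SD, n = 4) to 1.04 ± 0.174 (SD, n = 5), a change of −0.80 on the log2 scale (SE 0.0928, limma adjusted p = 0.00016, exact permutation p = 0.00794), to 57.3% of the uninjured ratio. It was the largest change among the factors with the reference above background on all arrays, at percentile 97.3 of all probes tested.

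Prrxl1 (NM_001001796, chr14:30036863-30036922 of mm7, plus strand), a factor of nociceptors and their dorsal horn targets, was 1.50, 1.22, 1.35 and 1.29 on uninjured arrays 1 to 4 and 0.93, 1.14, 1.20, 0.96 and 0.63 on injured arrays 1 to 5. The groups nearly met, at 1.20 and 1.22. Its change was −0.37 on the log2 scale (SE 0.112, limma adjusted p = 0.0353, exact permutation p = 0.0238). This call was lost without any one of 5 arrays, with adjusted p = 0.107 without uninjured array 1, 0.08 without uninjured array 3, 0.0633 without uninjured array 4, 0.0621 without injured array 1 and 0.0704 without injured array 4 in limma. With Agilent's own ratio the sign turned, to 0.42 (adjusted p = 0.507).

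Tlx3 (NM_019916, chr11:33154450-33154509 of mm7, minus strand), a homeobox factor of glutamatergic sensory and dorsal horn neurons, did not pass. It was 2.71, 2.95, 2.73 and 2.81 on uninjured arrays 1 to 4 and 2.71, 2.65, 2.45, 2.59 and 3.03 on injured arrays 1 to 5. Injured array 5 was the highest of all and injured array 3 the lowest. The log2 fold change was −0.12 (95% interval −0.35 to 0.12, limma adjusted p = 0.488), and it was −0.20 without injured array 5 and −0.06 without injured array 3.

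Fewer calls were left with a slide term or with another ratio. With slide as a fixed term, which in effect compares uninjured array 1 with the 3 injured arrays of slide 2, Isl1 (−0.57, limma adjusted p = 0.0295), Pou4f3 probe 1 (−1.38, 0.00856) and Etv1 (−0.90, 0.0251) passed, and the number of probes called over the whole array fell from 7338 to 1508. Isl2 was at −0.60 (adjusted p = 0.056, and 0.0562 at −0.34 with a background offset of 0), Pou4f1 probe 2 at −0.73 (0.0798), Runx1 probe 1 at −0.48 (0.0932), Pou4f3 probe 2 at −0.43 (0.165), Prrxl1 at −0.60 (0.118) and Runx3 probe 2 at −0.27 (0.405). As their groups did not overlap, all 9 called probes were by necessity lower on each of the 3 injured arrays of slide 2 than on its uninjured array. The same held for Pou4f1 probe 1, Pou4f2 probe 1 and Runx3 probe 1, which were not called, so it does not set the called probes apart. With Agilent's own ratio 5 probes were called (Isl2, Pou4f3 probe 2, Runx1 probe 1, Runx3 probe 2 and Etv1), where 5918 of 31186 probes were called over the whole array. Isl1 was then at −0.32 (limma adjusted p = 0.067), Pou4f1 probe 2 at −0.23 and Pou4f3 probe 1 at −0.36 (adjusted p = 0.54). Without injured arrays 2 and 4, those with muscle RNA, 9 probes were again called, where 4040 of 31186 were called over the whole array. The 9 now held Pou4f1 probe 1 (−0.36) and not Prrxl1 (−0.42, limma adjusted p = 0.071).

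**Figure D4:**
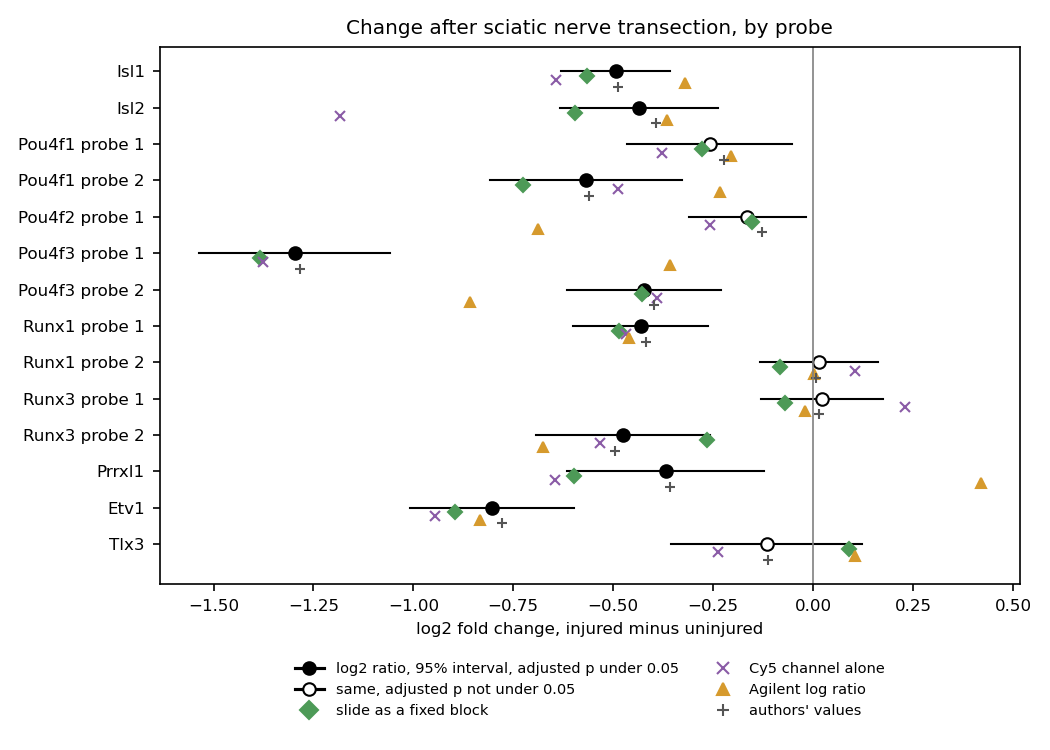
Log2 fold change, injured minus uninjured (x axis), for the 14 tested probes (y axis), with the 95% interval and a filled circle where the limma adjusted p was under 0.05; other symbols give the change with slide as a fixed term, in the Cy5 channel alone, with Agilent's ratio and in the authors' values. Pou4f3 probe 1 is at −1.30 but at −0.36 with Agilent's ratio, Prrxl1 moves from −0.37 to 0.42 with that ratio, and Isl2 is at −1.18 in Cy5 alone.

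Other transcription factors of sensory neurons also changed more often downward than upward. Of 25 tested, 11 were lower and 3 higher (56%, where 24.9% of all genes were called, 13.7% lower and 11.2% higher), with a median of −0.22 beside 0.0011 over all genes. Prdm8, a PR domain repressor, had the largest fall, from 5.12 ± 0.170 (SD, n = 4) to 4.16 ± 0.331 (SD, n = 5), a change of −0.96 (limma adjusted p = 0.00143). Klf7, a Krüppel-like factor of sensory neurons, had the largest rise, 0.39 (adjusted p = 0.000477). With slide as a fixed term 4 of the 25 passed, where 1508 of 31186 probes did over the whole array.

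Cofactors of LIM, Runx and homeodomain proteins moved in both directions. Of 20 tested, 5 were lower and 2 higher (35% called, beside 24.9% of all genes), with a median of −0.08. With slide as a fixed term 1 of the 20 passed, where 1508 of 31186 probes did over the whole array. Ldb2, a LIM-domain binding partner through which Islet factors form complexes, fell from 3.59 ± 0.0989 (SD, n = 4) to 2.77 ± 0.312 (SD, n = 5), a change of −0.82 (limma adjusted p = 0.00192). Hipk1, a homeodomain-interacting kinase, rose by 0.60 (adjusted p = 0.000625).

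Genes listed here as Runx1-dependent in nociceptors were mostly lower, and whether Runx1 had a part in this was not tested. Of 11 listed, 8 were tested, 5 were lower and 1 higher (where 13.7% of all genes were lower and 11.2% higher), with a median of −0.39. Among the lower genes were the Mrgpr family genes Mrgpra3 (−1.01, limma adjusted p = 0.0112) and Mrgprb5 (−0.85, 0.00147), the sodium channel gene Scn11a (−0.45, 0.00624) and the cold channel gene Trpm8 (−0.32, 0.00171). Ret, the receptor subunit for GDNF family ligands, was higher at 0.28 (adjusted p = 0.0146). P2rx3 at 0.16 (adjusted p = 0.123) and Trpa1 at −0.12 (adjusted p = 0.609) did not pass. With slide as a fixed term 2 of the 8 passed, where 1508 of 31186 probes did over the whole array.

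Genes of the proprioceptor class linked with Runx3 and Etv1 gave no common direction. Whrn, which encodes a scaffold protein of proprioceptive endings, fell by 0.75 on the log2 scale (limma adjusted p = 0.000154), and Heg1 rose by 0.34 (adjusted p = 0.00816). Pvalb, the calcium buffer that marks proprioceptors, was at −0.08 (adjusted p = 0.758) and Ntrk3, which encodes TrkC, at 0.07 (adjusted p = 0.653). Of the genes linked with Pou4f1 and Isl1, the 3 tested were not called, with 0 at an unadjusted p under 0.05 in limma and 0 by the exact test. Avil, an actin regulator of sensory neurons, was at 0.03 (adjusted p = 0.9) and the galanin receptor gene Galr1 at −0.12 (adjusted p = 0.221).

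General neuronal markers were called about as often as all genes, and every call was lower. Of 14 tested, 3 were lower and 0 higher (21.4% called, all lower). Of all genes 24.9% were called, 13.7% lower and 11.2% higher. The median of the list was −0.02. Its mean lay between −0.11 and 0.10 on uninjured and between −0.25 and 0.16 on injured arrays, relative to the uninjured mean. The lower genes were the RNA-binding protein gene Elavl4 (−0.28, limma adjusted p = 0.00928), Scn9a (−0.54, 0.00505) and the synaptotagmin gene Syt1 (−0.31, 0.0301). Tubb3 was at 0.16 (adjusted p = 0.351), Uchl1 at 0.01 (adjusted p = 0.985) and Rbfox3 at −0.09 (adjusted p = 0.524).

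Markers of other cells were called at 28.6% for satellite glia, 23.1% for macrophages and 18.2% for lymphocytes, near the 24.9% of all genes, and every call was higher, where 11.2% of all genes were. Of 13 macrophage genes, 3 were higher (Aif1 at 0.90, Cd14 at 0.83 and Itgam at 0.50) and none lower, with a median of 0.55, and the mean of the list lay between −0.38 and 0.34 on uninjured and between 0.13 and 0.95 on injured arrays. Of 11 lymphocyte genes, Lck (0.63) and Il2rb (0.41) were higher, and the list lay between −0.12 and 0.16 on uninjured and between 0.05 and 0.43 on injured arrays. Of 7 satellite glia genes, the glutamine synthetase gene Glul (0.78) and the glutamate transporter gene Slc1a3 (0.22) were higher, with the list between −0.12 and 0.11 on uninjured and between 0.02 and 0.36 on injured arrays. Schwann cell, red blood cell, skeletal muscle, and fibroblast and vessel lists had 0 genes called in limma, and 2 of 8, 2 of 3, 1 of 7 and 1 of 10 at an unadjusted p under 0.05 (0, 0, 0 and 1 by the exact permutation test). The share of all genes at the unadjusted and exact thresholds was not counted. The part of these shifts in the falls of Isl1, Isl2, Pou4f1, Pou4f3, Runx1, Runx3, Prrxl1 and Etv1 was not tested.

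**Figure D5:**
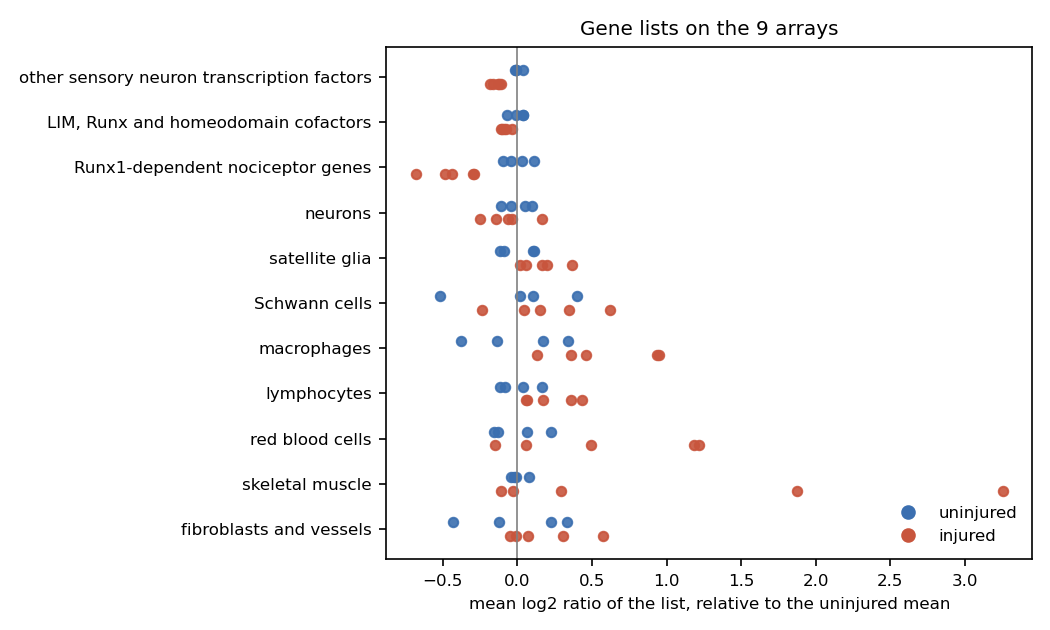
Mean log2 ratio of the gene lists drawn, relative to the uninjured mean of each (x axis), on the 4 uninjured (blue) and 5 injured (red) arrays. The Runx3 and Etv1 class and the Pou4f1 and Isl1 linked lists are not drawn. Their groups overlapped, with injured arrays from −0.23 to 0.08 and from −0.17 to 0.21. The Runx1-dependent list lies below its uninjured range on all injured arrays (−0.68 to −0.29), the neuronal list overlaps, and the skeletal muscle list reaches 1.87 and 3.25 on 2 injured arrays.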

How the data were processed

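The intensities used here are, per the file headers, the mean signal of each spot and its median local background in both channels, from Agilent Feature Extraction. The deposited log10 ratios in the same files were made by that software, and the table that the authors processed holds log2 ratios (Cy5 over Cy3) that match a within-array normalization. The version of the authors' pipeline is not given in the sources used here. From the intensities, spots with a non-uniform feature or background (2 to 26 per array) were left out, and normexp (offset 50), loess within each array and averaging of a probe's spots followed (R 4.3.3, limma 3.58.1). Without those spots the slope on the authors' values was 1.00 to 1.01 on all arrays, and with them 0.813 on injured array 2. Current names came from the accession (22951 probes), the symbol (6659) or an older name (3109), with 8455 left as in the file. Probes with Cy5 well above background on 4 or more arrays were tested with limma and Benjamini-Hochberg adjustment over all of them, and single values by a two-sided exact permutation test over all splits of the arrays. The number of arrays limits the precision. Every probe of the factors is named, then from each other list the called genes with the largest rise and fall, every called gene in lists of up to 15, and the 3 genes most like the factor of largest change. P2rx3, Trpa1, Pvalb, Ntrk3, Avil, Galr1, Tubb3, Uchl1, Rbfox3 and Nefl were named after their values were seen, as was the test between probes of a gene. Some genes of the lists are counted but not reported here by name. The factors, lists and tests were chosen with earlier results of these data known. The procedure was tested on simulated data. Alternatives were outlier spots kept, other background corrections and normalizations, Agilent's ratio, the authors' values, Cy5 alone, other filters, slide terms, array weights, a stricter threshold and leaving out arrays. Changes in Cy5 alone or in the reference channel alone were taken after quantile normalization between arrays. Figures were drawn with matplotlib 3.10.9.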

Additional observations from a re-analysis of the deposited data

Results flagged for a closer look

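In 4 of the 56 groups of arrays examined (each probe of the factors and each gene list, in uninjured and in injured arrays), 1 array stood apart from the others by Dixon's test at the 95% level, a test that chance passes in about 1 of 20 groups. Uninjured array 3 had the lowest ratio of its group at Pou4f1 probe 2, 3.88, against 4.24 to 4.29 on the other uninjured arrays. Uninjured array 2 was the lowest of its group for Etv1, at 1.70 against 1.88 to 1.91. Injured array 4 was the lowest injured array at Pou4f2 probe 1, at 0.0277, and the highest at Pou4f3 probe 2, at 0.581 against 0.20 to 0.31. Skeletal muscle genes were also highest on injured array 4, and the part of that in these values was not tested.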

How the results depend on the processing

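No paired analysis was possible because no label names an animal and the replicate numbers only follow the order of the samples. Etv1 kept its direction and its call under every alternative run. With slide as a fixed term the call ended for Isl2 (−0.60), Pou4f1 probe 2 (−0.73), Pou4f3 probe 2 (−0.43), Runx1 probe 1 (−0.48), Runx3 probe 2 (−0.27) and Prrxl1 (−0.60), which left 3 member probes of 1508 probes called, and Runx1 probe 2 (−0.0823), Runx3 probe 1 (−0.0691) and Tlx3 (0.0894), none of them called, turned sign. That term also left 4 other transcription factors, 1 cofactor, 2 Runx1-dependent genes, 1 gene of the Runx3 and Etv1 class, 0 neuronal, 1 satellite glia, 0 macrophage and 1 lymphocyte gene. The correlation within slides was −0.202, and as a random block slide raised Pou4f1 probe 1 (−0.27) past the threshold, as did kept outlier spots (−0.37) and Cy5 alone (−0.38, with Pou4f2 probe 1 at −0.26).

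With Agilent's ratio 5 member probes were called, of 5918 probes called over the whole array. Isl1 (−0.32), Pou4f1 probe 2 (−0.23), Pou4f3 probe 1 (−0.36), Prrxl1 (0.42), Runx3 probe 1 (−0.0192) and Tlx3 (0.11) lost the call or turned sign. The reference was not above background on every array at Pou4f1 probe 2, Pou4f3 probe 1 and Prrxl1, and the cause was not tested. The differences Pou4f1 minus Pou4f2 (0.48), Isl1 minus Isl2 (0.0432), Pou4f2 minus Pou4f3 (−0.33), Pou4f1 minus Pou4f3 (0.15) and Runx1 minus Runx3 (−0.44) did not pass there. An offset of 0 gave Isl2 −0.34, Prrxl1 −0.16, Runx1 probe 2 −0.0016, Tlx3 0.0209, Pou4f1 minus Pou4f2 0.16 and Pou4f2 minus Pou4f3 0.84, none of which passed. Prrxl1 also missed the threshold without background correction (−0.35) and with the authors' values (−0.36).

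Median centring called 3523 probes, with Prrxl1 (−0.41) not among them, Runx1 probe 2 at −0.0524, Runx3 probe 1 at −0.0257 and Isl1 minus Isl2 at 0.0046, and with 8 other transcription factors and 1 gene each of the Runx3 and Etv1 class, satellite glia and lymphocytes. In Cy5 alone Isl1 minus Isl2 was 0.54. An adjusted p under 0.01 left 3952 probes. Without injured arrays 2 and 4, a choice made after the muscle levels were seen, 4040 probes were called, with Pou4f1 probe 1 at −0.36 and Prrxl1 at −0.42, 7 other transcription factors, and 1 gene each of the Runx3 and Etv1 class, neurons and satellite glia. With the other probe of a gene, also chosen after the data were seen, the differences were −0.40 (Pou4f1 probe 2 minus Pou4f2), 0.16 (Pou4f1) and 0.26 (Pou4f2) against Pou4f3 probe 2, −0.0079 with Runx1 probe 2 and 0.0435 with Runx3 probe 2.

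Leaving out 1 array at a time gave 5377 to 7481 probes and 8 to 10 member probes. Pou4f1 probe 1 ranged from −0.31 (without injured array 2, where it passed) to −0.19, Prrxl1 from −0.43 to −0.28, Tlx3 from −0.20 to −0.0574 without a call, and Runx1 probe 2 (−0.0210 to 0.0445) and Runx3 probe 1 (−0.0154 to 0.0680) took either sign. Runx1 minus Runx3 ranged from −0.50 to −0.42 and had an adjusted p of 0.0595 without uninjured array 3 or 4. Satellite glia genes called ranged from 1 to 2, Schwann cell genes from 0 to 2 (2 without injured array 5), macrophage genes from 2 to 7 (7 without injured array 1), lymphocyte genes from 1 to 2 and red blood cell genes from 0 to 2 (2 without injured array 1, 1 without injured array 3).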
